A study of Mus musculus with 12 samples.

Results

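Expression of 50 mitosis and cytokinesis genes was measured by RNA-seq in 12 libraries of mouse pre-osteoblasts. The genes were taken by name: mitotic cyclins, the kinase CDK1 and its activators, other mitotic kinases, spindle checkpoint and kinetochore genes, kinesins, condensin subunits and cytokinesis genes. All 50 were found among the 23358 rows of the gene table, and all 50 were among the 12056 genes with at least 1 CPM (counts scaled to a common library size) in at least 2 libraries. The cells were MC3T3 sc4, a subclone of a C57BL/6 calvarial line that turns into osteoblasts, at passage 12. RNA was taken on day 6 or day 1 of osteogenic medium (ascorbic acid and β-glycerol phosphate), and the treatments were renewed once with the medium. On each day there were 6 treatments: 5 µM GSK126 with BMP2 at 10 or 50 ng/ml, 5 µM GSK126 alone, BMP2 alone at 10 or 50 ng/ml, and vehicle. GSK126 inhibits EZH2, the histone H3 lysine methyltransferase of Polycomb repressive complex 2, and BMP2 is a bone morphogenetic protein that drives osteoblast differentiation. Each condition was 1 library, so single conditions have no replicate check.

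A cell enters mitosis when CDK1 bound to a B-type cyclin becomes active, and it leaves mitosis when the anaphase-promoting complex, activated by CDC20, marks cyclin B and securin for destruction. Most genes of this programme are transcribed late in the cell cycle, when the MYBL2-MuvB and FOXM1 factors act on promoters that carry a cell cycle genes homology region (CHR) and CCAAT boxes, and they are held off in resting cells by the related DREAM complex. In osteoblast cultures the programme marks the proliferative phase that comes before matrix maturation. Because RNA was taken from whole cultures, fewer dividing cells and less of these RNAs per dividing cell cannot be told apart.

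The promoters show what many of these genes share in sequence, and the stretch of 120 bases before the annotated start is given for both B cyclins, their kinase, the APC/C activator Cdc20 and the mitotic kinase Plk1. The sequences are from RefSeq, build GRCm38.p6, written 5′ to 3′ in the direction of the gene, with CHR letters (TTTGAA or TTCGAA) and CCAAT letters on either strand in capitals. They lie at chr13:100786487-100786606 on the minus strand (Ccnb1), chr9:70421555-70421674 on the minus strand (Ccnb2), chr4:118437344-118437463 on the minus strand (Cdc20), chr10:69352913-69353032 on the minus strand (Cdk1) and chr7:122159315-122159434 on the plus strand (Plk1).
Ccnb1: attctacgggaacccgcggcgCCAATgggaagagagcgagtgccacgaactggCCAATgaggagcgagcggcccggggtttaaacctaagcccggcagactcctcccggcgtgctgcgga
Ccnb2: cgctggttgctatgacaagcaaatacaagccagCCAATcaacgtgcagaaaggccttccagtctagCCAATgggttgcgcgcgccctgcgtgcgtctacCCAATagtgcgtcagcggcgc
Cdc20: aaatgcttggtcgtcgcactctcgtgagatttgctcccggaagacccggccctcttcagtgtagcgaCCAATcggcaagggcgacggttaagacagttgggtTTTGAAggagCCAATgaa
Cdk1: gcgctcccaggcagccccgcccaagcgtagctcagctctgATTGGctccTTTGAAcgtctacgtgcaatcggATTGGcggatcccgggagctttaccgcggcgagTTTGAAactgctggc
Plk1: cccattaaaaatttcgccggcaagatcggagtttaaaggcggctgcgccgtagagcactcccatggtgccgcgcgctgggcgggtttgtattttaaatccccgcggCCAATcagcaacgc
Ccnb2 held 3 CCAAT boxes in this stretch, Ccnb1, Cdc20 and Cdk1 held 2 each and Plk1 held 1. In Cdc20 and Cdk1 a CHR spelling lay within 20 bases of the start. The full windows (250 bases before to 50 after the start) were available for 40 of the 50 genes, as 42 windows. Those of Ccnb2 and Plk1 held 2 and 1 CHR spellings, which the printed stretches do not show, and that of Ccnb1 held 0. A CHR spelling was in 78.6% of these windows, against 19.2% of all 32851 promoter windows. A CCAAT box was in 73.8% of them, against 37.4% of all windows, and both motifs were in 66.7%, against 7.52%. An E2F core (TTTCGCGC, TTTGGCGC or TTTCCCGC on either strand) was in 9.52%, against 1.84%, in the windows of Cdk1, Kif15, Ncapd2 and Ncapg. Of the 40 genes, 26 had both CHR and CCAAT letters, 8 had one of them, and 6 had neither: Birc5, Mad2l1, Melk, Mybl2, Nuf2 and Pttg1. With GSK126 on day 6 the median log2 fold change was -1.08 in the 26 genes with both motifs, -1.08 in the 8 with one and -0.78 in the 6 with neither, and with BMP2 it was -0.72, -0.61 and -0.48. Between day 6 and day 1 the order was reversed, with medians of -1.81, -1.83 and -1.92 in the same groups. The GSK126 values ran from -1.38 to -0.0123 in the genes with both motifs and from -1.15 to -0.126 in those with neither. These groups were not tested against each other, and the letters are matches, not shown binding sites.

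The libraries held 74301112 to 113744802 gene counts, and the smallest count of any of the 50 genes in any library was 232. Levels are CPM after TMM scaling. Log2 fold changes are given ± the standard error of an additive edgeR model over all 12 libraries. Its error comes from 4 residual degrees of freedom per gene, moderated with information from all tested genes, and not from repeats of a condition. The libraries of both days share the same estimate of spread for a gene. A gene is said to fall or rise where the Benjamini-Hochberg adjusted p over all 12056 genes is under 0.05. The labels do not say that the libraries were separate cultures. Within each day, the fit's error is how far the libraries depart from added log2 effects of GSK126 and BMP2 dose. Any such departure and noise between libraries cannot be told apart in these p-values. The share of counts taken by the ribosomal RNA precursor Rn45s was 13.1% to 21.66% on day 6 and 8.96% to 11.71% on day 1. Its part in the results was not tested beyond leaving it out of the table, which left the number of the 50 genes called unchanged in all 11 comparisons.

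Together the 50 genes summed to 1509, 1204 and 898 CPM on day 6 with GSK126 at 0, 10 and 50 ng/ml BMP2, and to 3094, 2311 and 1609 CPM on day 6 without GSK126. On day 1 the 6 libraries summed to between 5433 and 5743 CPM. The day 1 libraries lay close together and the day 6 libraries fanned out by treatment. Within day 1 the highest library was 1.04 to 1.2 times the lowest for each gene (median 1.1), and within day 6 it was 1.34 to 6.16 times (median 4.12).

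**Figure D1:**
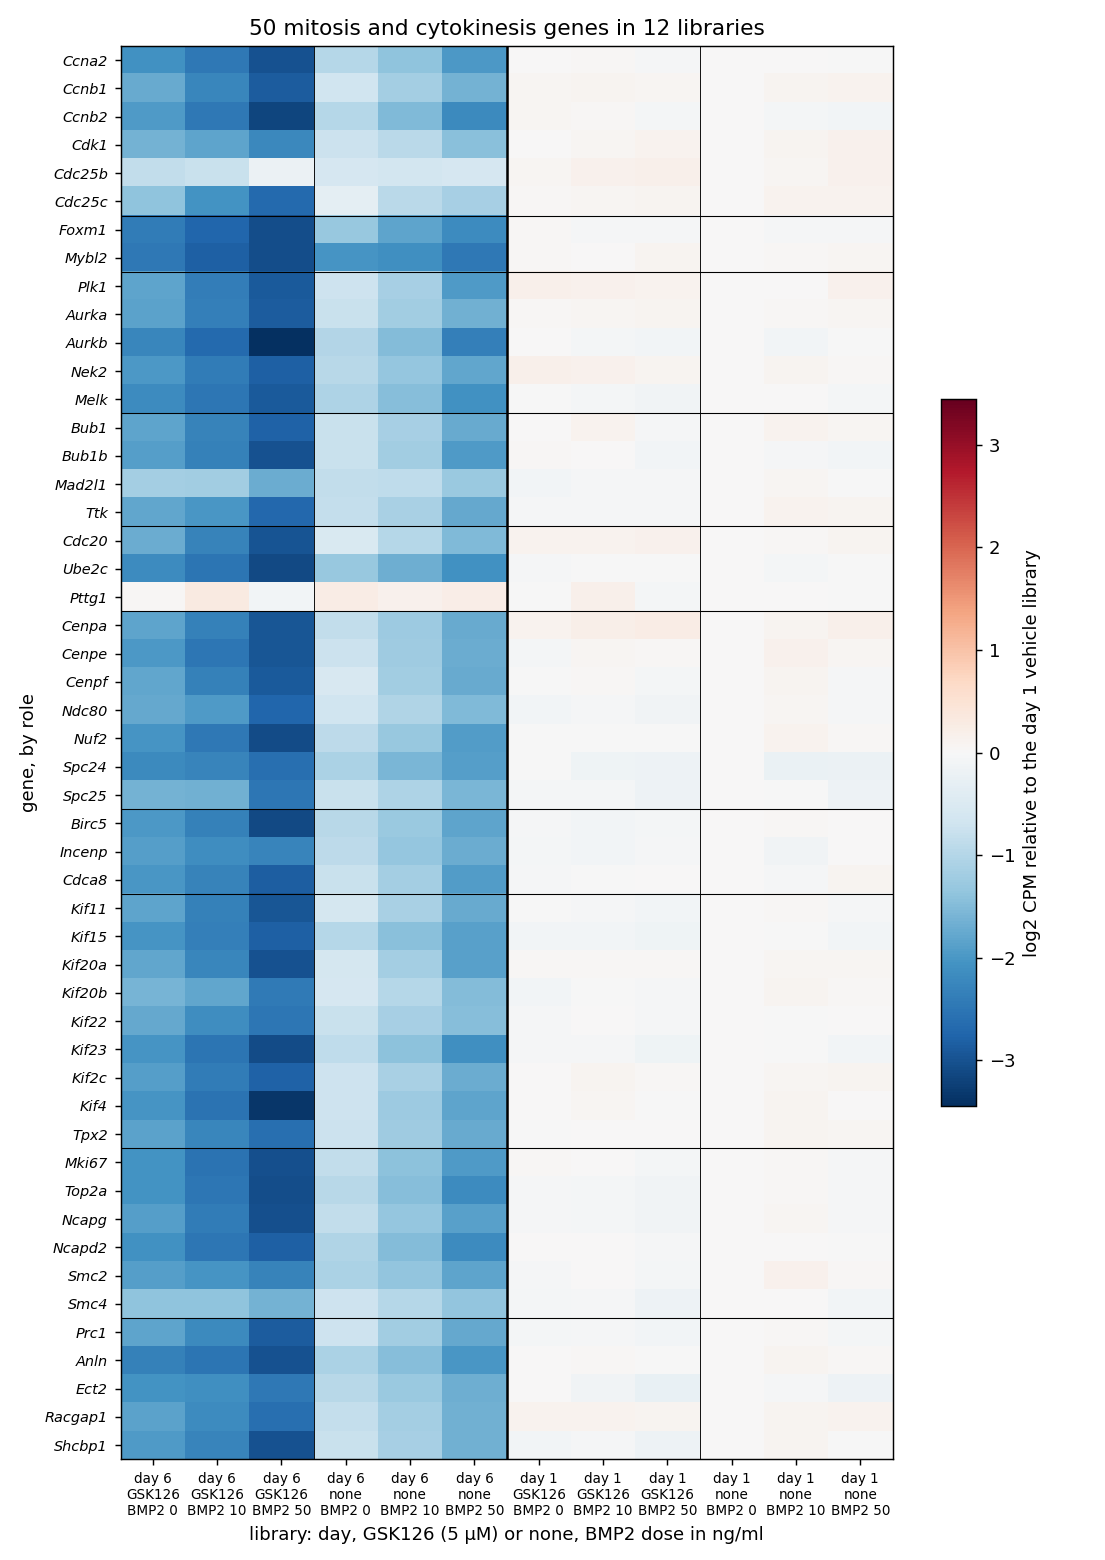
Level of each of the 50 genes (rows, grouped by role) in each of the 12 libraries (columns, day 6 left of day 1, GSK126 left of none, BMP2 at 0, 10 and 50 ng/ml), as log2 CPM relative to the day 1 vehicle library. Day 1 is nearly blank, and on day 6 the blue deepens with BMP2 dose and again with GSK126, except in Cdc25b and Pttg1, and only weakly in Mad2l1 and Smc4.

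Between day 6 and day 1, over the 6 treatments, 49 of the 50 genes fell and 0 rose, where 37.5% of all tested genes fell and 40.5% rose. Their median log2 fold change was -1.82, against 0.03 over all tested genes. In each of these 49 genes, all 6 day 6 libraries lay below all 6 day 1 libraries. How many of all tested genes were separated in this way was not counted. The falls of largest size were those of Mybl2 (-2.53 ± 0.04, adjusted p = 5.3e-08), Foxm1 (-2.22 ± 0.04, adjusted p = 5.2e-08) and Aurkb (-2.17 ± 0.04, adjusted p = 5.2e-08), by edgeR's quasi-likelihood test. Those of smallest size were Mad2l1 (-1.16 ± 0.03) and Cdc25b (-0.69 ± 0.08, adjusted p = 0.00016). Treated and vehicle cultures differed in the size of the drop. The ratio of day 1 vehicle to day 6 vehicle had a median of 1.74 over the 50 genes, and the ratio of day 1 vehicle to the day 6 library with GSK126 and 50 ng/ml BMP2 had a median of 7.32.

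GSK126 on day 6, compared at matched BMP2 doses, lowered 48 of the 50 genes and raised 0, where 14% of all tested genes fell and 14.3% rose. The median log2 fold change was -1.07, against -0.002 over all tested genes, and the standard errors had a median of 0.053. The 3 genes that fell most were Kif4 (-1.38 ± 0.06, adjusted p = 3.4e-05), Cdc20 (-1.33 ± 0.06, adjusted p = 3.4e-05) and Cenpe (-1.25 ± 0.04, adjusted p = 2.8e-05). By rank, 44 of the 50 were among the 500 genes with the most negative fold changes. Between matched libraries on day 6, all 50 were lower with GSK126 at 0 ng/ml BMP2. At 10 and at 50 ng/ml 49 were lower, with Pttg1 the exception at 10 and Cdc25b at 50 ng/ml. Of all tested genes 50%, 50.1% and 51% were lower at 0, 10 and 50 ng/ml.

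BMP2 on day 6, taken as the average over the 2 doses, also lowered 48 of the 50 and raised 0, where 15.5% of all tested genes fell and 13.3% rose. By rank, 0 of the 50 were among the 500 genes with the most negative values for this average, and 10 were for 50 ng/ml. The median log2 fold change was -0.67, against -0.002 over all tested genes. Ccnb2 (-0.88 ± 0.05, adjusted p = 1e-04), Kif20a (-0.87 ± 0.04, adjusted p = 1e-04) and Aurkb (-0.87 ± 0.05, adjusted p = 0.00013) fell most. The 3 genes with the least negative values were Mad2l1 (-0.255 ± 0.045, adjusted p = 0.0068), Pttg1 (0.01 ± 0.11, adjusted p = 0.96) and Cdc25b (0.175 ± 0.12, adjusted p = 0.32). The GSK126 and BMP2 values come from the same day 6 libraries and share the same estimate of error, so they are not separate experiments.

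**Figure D2:**
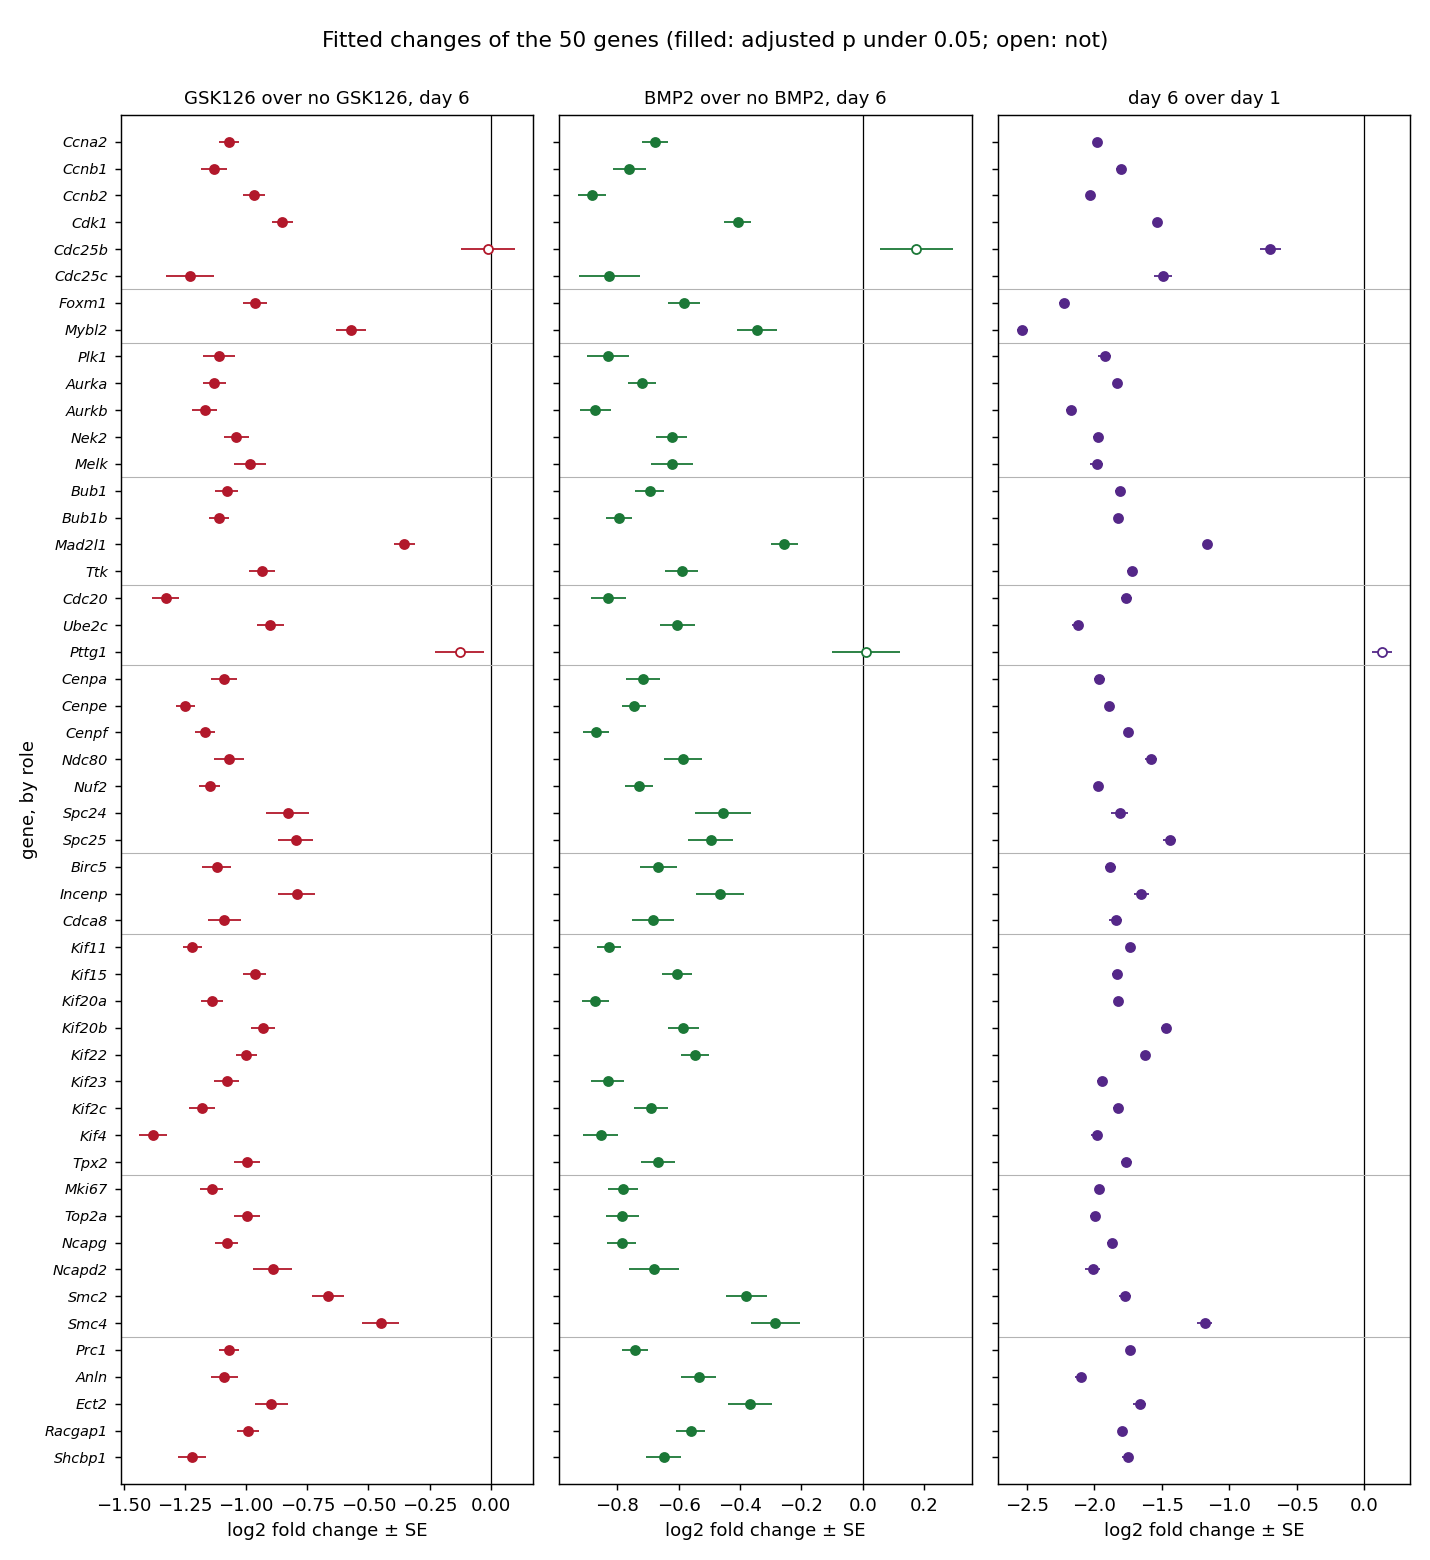
Fitted log2 fold change ± SE of each of the 50 genes for GSK126 on day 6, BMP2 on day 6 and day 6 over day 1 (3 panels with different horizontal scales; filled points passed the adjusted p of 0.05). Nearly every gene lies left of 0 in all 3 panels. The open points are Cdc25b and Pttg1 for GSK126 and for BMP2, and Pttg1 alone for day 6 over day 1.

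Among the cyclins and CDK1 and its activators, 5 of 6 genes fell with GSK126 and 5 of 6 with BMP2 on day 6. Ccnb1, which encodes the cyclin B1 partner of CDK1, had 23.6, 16.4 and 10.8 CPM on day 6 with GSK126 at 0, 10 and 50 ng/ml BMP2, against 48.7, 35.2 and 25.6 CPM without GSK126, and 78.6 to 85.6 CPM on day 1 (median 83.3). Within day 6 every library with GSK126 lay below every library without it, and the level was lower at each higher BMP2 dose. Ccnb1 fell by 1.13 ± 0.05 on the log2 scale with GSK126 and by 0.76 ± 0.05 with BMP2. Cdk1, the kinase itself, had 40.7, 36.0 and 27.3 CPM on day 6 with GSK126 along the same doses, against 75.5, 66.5 and 46.8 CPM without it, and 126 to 139 CPM on day 1 (median 134). The first BMP2 step was small in Cdk1 (-0.18 ± 0.05, adjusted p = 0.068), and the mean over both doses was -0.41 ± 0.04. Cyclin A2 (Ccna2) and cyclin B2 (Ccnb2) had GSK126 values of -1.07 and -0.97. Cdc25c, a phosphatase that activates CDK1, had 6.65, 4.20 and 2.72 CPM on day 6 with GSK126 and 13.9, 9.16 and 7.96 CPM without it, and fell by 1.23 ± 0.10 on the log2 scale with GSK126.

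Both transcription factors of the programme fell with each agent, and both were at the extreme for day. Foxm1, a forkhead factor that raises G2/M genes, had 33.3, 26.5 and 21.0 CPM on day 6 with GSK126, against 70.3, 49.7 and 39.4 CPM without it, and 169 to 182 CPM on day 1 (median 169.9). Mybl2, the B-MYB subunit that joins MuvB, had 8.31, 6.61 and 5.61 CPM on day 6 with GSK126, against 11.2, 10.7 and 8.43 CPM without it, and 46.2 to 49.5 CPM on day 1 (median 47.3). Most of the difference in Mybl2 was already present in vehicle, where the day 1 level was 4.12 times the day 6 level, the highest ratio of the 50 genes. Its fold changes were -0.57 ± 0.06 with GSK126 (adjusted p = 0.0011) and -0.343 ± 0.065 with BMP2 (adjusted p = 0.0089), the second of which did not pass in a fit on day 6 alone (adjusted p = 0.12).

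All 5 mitotic kinase genes fell with GSK126 and with BMP2. Plk1, the polo-like kinase that acts from mitotic entry to cytokinesis, had 18.3, 12.4 and 8.68 CPM on day 6 with GSK126, against 39.6, 29.2 and 16.9 CPM without it, and 64.8 to 72.5 CPM on day 1 (median 71.0). The libraries with and without GSK126 overlapped in Plk1, since BMP2 alone at 50 ng/ml went below GSK126 alone. Aurka, the centrosomal Aurora kinase, had 15.1, 10.4 and 7.41 CPM on day 6 with GSK126, against 31.4, 23.2 and 16.9 CPM without it, and 53.6 to 57.1 CPM on day 1 (median 55.6). Aurkb, the kinase of the chromosomal passenger complex, had 13.3, 9.91 and 5.82 CPM on day 6 with GSK126, against 31.6, 22.3 and 12.4 CPM without it, and 59.8 to 64.0 CPM on day 1 (median 61.8). Day 1 vehicle was 10.9 times the day 6 library with both agents at 50 ng/ml for Aurkb, the highest such ratio of the 50. The fitted GSK126 values were -1.11 ± 0.07, -1.13 ± 0.05 and -1.17 ± 0.05 for Plk1, Aurka and Aurkb. Nek2 and Melk stood at -1.04 and -0.99.

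The 4 spindle checkpoint genes all fell with both agents, Mad2l1 least. Bub1, a checkpoint kinase at the kinetochore, had 19.6, 14.0 and 10.1 CPM on day 6 with GSK126, against 40.5, 31.2 and 20.8 CPM without it, and 67.8 to 75.9 CPM on day 1 (median 71.1). Mad2l1, the MAD2 protein that sequesters CDC20, had 43.6, 43.0 and 30.3 CPM on day 6 with GSK126, against 54.9, 53.3 and 40.5 CPM without it, and 92.8 to 104 CPM on day 1 (median 97.1). Its levels hardly differed between 0 and 10 ng/ml BMP2 in either arm. The GSK126 value was -1.08 ± 0.05 for Bub1 and -0.35 ± 0.04 for Mad2l1 (adjusted p = 0.0017). The BMP2 value of Mad2l1 did not pass in a fit on day 6 alone (adjusted p = 0.092). Bub1b and Ttk stood at -1.11 and -0.93.

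In the group of anaphase genes, 2 of 3 fell with each agent. Cdc20 had 21.3, 14.0 and 8.87 CPM on day 6 with GSK126, against 48.7, 35.4 and 24.3 CPM without it, and 69.4 to 77.5 CPM on day 1 (median 75.1). All 3 libraries with GSK126 lay below all 3 without it. Ube2c, the ubiquitin-conjugating enzyme of the anaphase-promoting complex, had 14.8, 11.7 and 7.67 CPM on day 6 with GSK126, against 26.8, 20.8 and 15.7 CPM without it, and 64.0 to 66.6 CPM on day 1 (median 65.9). Ube2c fell by 0.90 ± 0.06 on the log2 scale with GSK126 and by 0.60 ± 0.06 with BMP2.

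All 7 centromere and kinetochore genes fell with both agents. Cenpf, a large kinetochore protein of late G2 and mitosis, had 48.7, 33.3 and 22.5 CPM on day 6 with GSK126, against 113, 72.8 and 50.1 CPM without it, and 159 to 178 CPM on day 1 (median 167). Ndc80, which binds spindle microtubules, had 12.4, 10.9 and 6.43 CPM on day 6 with GSK126, against 26.4, 20.6 and 14.8 CPM without it, and 39.0 to 44.2 CPM on day 1 (median 41.4). Both genes kept the GSK126 libraries apart from the others. Cenpf fell by 1.17 ± 0.04 and Ndc80 by 1.07 ± 0.06 on the log2 scale with GSK126. Over the 7 genes the GSK126 values ran from -1.25 in Cenpe, a kinetochore kinesin, to -0.80 in Spc25, with Nuf2 at -1.15, Cenpa, the centromeric histone, at -1.09 and Spc24 at -0.83, and the BMP2 values from -0.87 in Cenpf to -0.46 in Spc24, which did not pass in a fit on day 6 alone (adjusted p = 0.11) or without day 6 vehicle (-0.239, adjusted p = 0.066).

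The 3 genes of the chromosomal passenger complex fell with both agents. Birc5, which encodes survivin, had 19.7, 15.4 and 9.01 CPM on day 6 with GSK126, against 40.1, 32.2 and 21.9 CPM without it, and 73.1 to 80.2 CPM on day 1 (median 76.1). Incenp, the scaffold that activates Aurora B, had 44.7, 37.9 and 34.0 CPM on day 6 with GSK126, against 88.8, 66.4 and 50.8 CPM without it, and 154 to 167 CPM on day 1 (median 160.2). Incenp moved less than its partner, with -0.79 ± 0.08 against -1.12 ± 0.06 for GSK126, and its BMP2 value did not pass in a fit on day 6 alone (adjusted p = 0.06). Cdca8, the borealin subunit, stood at -1.09.

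All 9 kinesin and spindle assembly genes fell with both agents. Kif11, the motor that pushes spindle poles apart, had 55.5, 38.6 and 25.3 CPM on day 6 with GSK126, against 129, 90.7 and 58.8 CPM without it, and 183 to 199 CPM on day 1 (median 192). Kif23, the central spindle kinesin of cytokinesis, had 17.6, 12.6 and 8.56 CPM on day 6 with GSK126, against 39.4, 27.1 and 16.5 CPM without it, and 64.4 to 71.9 CPM on day 1 (median 69.9). Kif4, a chromokinesin, had 16.3, 11.5 and 6.64 CPM on day 6 with GSK126, against 40.9, 28.3 and 19.2 CPM without it, and its highest day 6 library was 6.16 times its lowest, the widest spread of the 50. Fold changes with GSK126 ran from -1.38 in Kif4 to -0.93 in Kif20b, with Kif2c at -1.18, Kif20a at -1.14, Kif15 at -0.97 and Tpx2, which activates Aurora A, at -0.998, and with BMP2 from -0.87 in Kif20a to -0.55 in Kif22.

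Chromosome structure genes fell in 6 of 6 cases with each agent, condensin's SMC subunits least. Mki67, the Ki-67 protein that coats mitotic chromosomes, had 125, 88.4 and 63.9 CPM on day 6 with GSK126, against 288, 196 and 135 CPM without it, and 491 to 536 CPM on day 1 (median 519). Top2a, the topoisomerase that untangles sister chromatids, had 109.5, 82.1 and 54.9 CPM on day 6 with GSK126, against 235, 164 and 102 CPM without it, and 417 to 468 CPM on day 1 (median 447). Mki67 fell by 1.14 ± 0.05 and Top2a by 0.998 ± 0.053 on the log2 scale with GSK126. Ncapd2, a condensin I subunit, had 68.5, 51.1 and 41.1 CPM on day 6 with GSK126, against 139, 103 and 63.8 CPM without it, and 281 to 292 CPM on day 1 (median 288). Ncapg, a condensin subunit, stood at -1.08 and Smc2 at -0.67 with GSK126. Smc2 stood at -0.38 with BMP2 (adjusted p = 0.0072), and did not pass in a fit on day 6 alone (adjusted p = 0.075). Smc4, an ATPase shared by both condensins, had 78.3, 78.5 and 67.0 CPM on day 6 with GSK126, against 125, 105 and 79.8 CPM without it, and 182 to 207 CPM on day 1 (median 197). Smc4 stood at -0.45 ± 0.08 with GSK126 (adjusted p = 0.0062), or -0.447 (adjusted p = 0.069) in a fit on the 6 day 6 libraries alone. With BMP2 it stood at -0.29 ± 0.08 (adjusted p = 0.037), and leaving out any of 9 libraries took its adjusted p above 0.05, up to 0.27 without the day 6 vehicle library, where the value was -0.11.

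The 5 cytokinesis genes fell with both agents. Prc1, which bundles central spindle microtubules, had 35.5, 27.2 and 17.1 CPM on day 6 with GSK126, against 76.3, 55.2 and 36.7 CPM without it, and 118 to 129 CPM on day 1 (median 121). Anln, the anillin scaffold of the contractile ring, had 44.4, 39.2 and 27.8 CPM on day 6 with GSK126, against 104, 80.4 and 55.6 CPM without it, and 222 to 238 CPM on day 1 (median 228). Ect2, the exchange factor that activates RhoA at the cleavage furrow, had 18.8, 18.3 and 14.3 CPM on day 6 with GSK126, against 40.1, 32.5 and 24.3 CPM without it, and 66.0 to 79.0 CPM on day 1 (median 74.1). With GSK126 already present, Ect2 hardly differed between 0 and 10 ng/ml BMP2. The GSK126 values were -1.07 ± 0.04, -1.09 ± 0.06 and -0.90 ± 0.07 for Prc1, Anln and Ect2, and the BMP2 values were -0.74, -0.54 and -0.37, of which that of Ect2 did not pass in a fit on day 6 alone (adjusted p = 0.078). Racgap1 and Shcbp1 stood at -0.99 and -1.22 with GSK126.

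**Figure D3:**
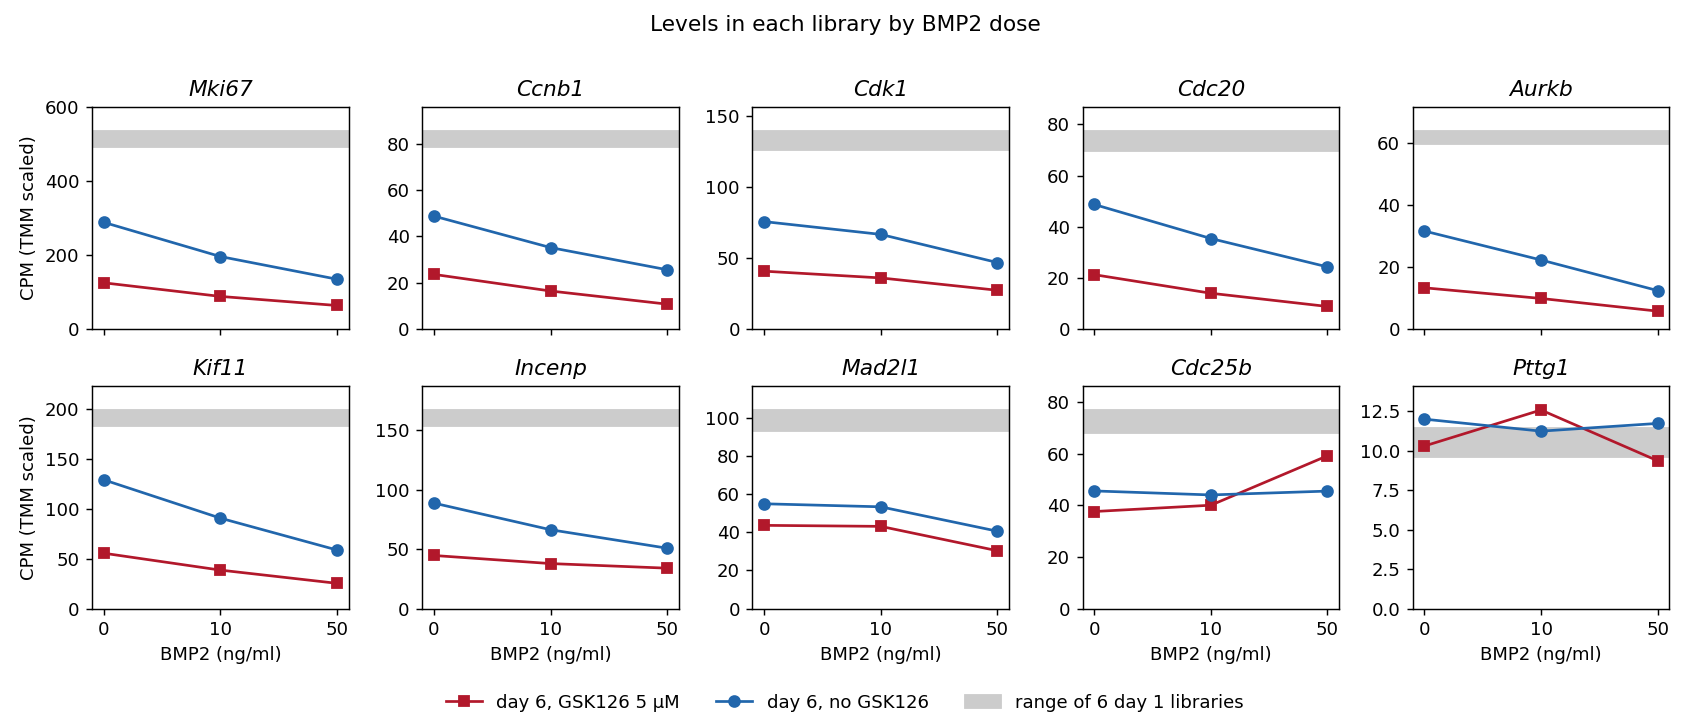
CPM of 10 of the genes in each day 6 library against BMP2 dose (red squares with 5 µM GSK126, blue circles without), with the range of the 6 day 1 libraries in grey and each vertical axis from 0. Mki67, for example, steps through 125, 88.4 and 63.9 CPM with GSK126 and 288, 196 and 135 CPM without it. Cdc25b and Pttg1 were not called for either agent on day 6, though Cdc25b rises with BMP2 dose in the libraries with GSK126.

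Cdc25b (mm10 chromosome 2, 131186948 to 131198511) and Pttg1 (chromosome 11, 43420248 to 43426248) were not called for either agent on day 6. Cdc25b, a phosphatase that starts CDK1 activation, had 37.6, 40.0 and 59.1 CPM on day 6 with GSK126 at 0, 10 and 50 ng/ml BMP2, against 45.5, 44 and 45.5 CPM without it, and 67.8 to 76.9 CPM on day 1 (median 73.3). Its highest day 6 level was in the library with GSK126 and 50 ng/ml BMP2, where 49 of the 50 genes were at their lowest. The GSK126 value of -0.01 ± 0.11 (adjusted p = 0.95) was -0.21 and passed without that library (adjusted p = 0.019) and without the library of 50 ng/ml BMP2 alone (adjusted p = 0.02). The BMP2 value was 0.32 and passed (adjusted p = 0.0042) without the library of 50 ng/ml BMP2 alone. Pttg1, securin, which holds separase inactive until anaphase, had 10.3, 12.6 and 9.36 CPM on day 6 with GSK126, against 12.0, 11.2 and 11.7 CPM without it, and 9.60 to 11.4 CPM on day 1 (median 10.0). The libraries of the groups overlapped for GSK126, for BMP2 and for day. Its day 6 over day 1 value of 0.13 ± 0.07 (adjusted p = 0.13) was 0.20 and passed without the day 6 library of 10 ng/ml BMP2 (adjusted p = 0.015), and was 0.181 at the threshold without that of 50 ng/ml with GSK126 (adjusted p = 0.05 after rounding).

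On day 1 the fit over all 12 libraries called none of the 50 for either agent. For GSK126 on day 1, edgeR called 0 of the 50, where 0% of all tested genes passed in either direction. At an unadjusted p under 0.05 there was 1 of the 50 (755 of all genes), DESeq2 and limma-voom called 0 of the 50, and the fold changes had a median of -0.0242. They ran from -0.128 in Shcbp1, -0.107 in Ttk and -0.101 in Kif20b up to 0.0902 in Nek2, 0.0942 in Plk1 and 0.0962 in Cenpa. For BMP2 on day 1 edgeR called 0 of the 50, where 3.66% of all tested genes passed in either direction. Unadjusted, 2 of the 50 had p under 0.05, DESeq2 and limma-voom called 0, and the values had a median of 0.0163. They ran from -0.179 in Spc24, -0.154 in Ect2 and -0.0759 in Ccnb2 up to 0.103 in Cdk1, 0.106 in Cenpe and 0.136 in Cenpa. A fit on the 6 day 1 libraries alone called 11 of the 50 for GSK126, 9 lower and 2 higher, where it called 1957 of all genes, and 10 for BMP2, 4 lower and 6 higher, where it called 4683 of all genes. Between matched day 1 libraries, 26, 31 and 40 of the 50 were lower with GSK126 at 0, 10 and 50 ng/ml BMP2, with medians of -0.005, -0.03 and -0.04. Of all tested genes 45.3%, 47.8% and 48.5% were lower in these comparisons. With BMP2 alone, 13 of the 50 were lower and 37 higher at 10 ng/ml (median 0.05), and 24 and 26 at 50 ng/ml. With GSK126 present, 17 were lower and 33 higher at 10 ng/ml BMP2, and 31 and 19 at 50 ng/ml. Of all tested genes 48.5% to 50.5% were lower in these BMP2 comparisons.

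The difference between the days was tested directly. The GSK126 effect was more negative on day 6 than on day 1 for 47 of the 50 genes, where 6.52% of all tested genes had such a difference. The median difference was -1.03, and it was largest in Cdc20 (-1.41 ± 0.08, adjusted p = 0.00032), Kif4 (-1.37 ± 0.08, adjusted p = 0.00032) and Cdc25c (-1.22 ± 0.13, adjusted p = 0.0025). It was smallest among the called genes in Mad2l1 (-0.28 ± 0.06, adjusted p = 0.032), and Smc4 (-0.38 ± 0.11, adjusted p = 0.074), Pttg1 (-0.16 ± 0.14) and Cdc25b (-0.09 ± 0.16) did not pass. The BMP2 effect was more negative on day 6 for 43 of the 50 genes, where 5.33% of all tested genes had such a difference. Its median was -0.67, and Kif20a (-0.90 ± 0.06, adjusted p = 0.0018), Cdc25c (-0.90 ± 0.14, adjusted p = 0.012) and Kif4 (-0.88 ± 0.08, adjusted p = 0.0023) were at the extreme. At the other end stood Ect2 (-0.21 ± 0.10), Pttg1 (-0.03 ± 0.15) and Cdc25b (0.08 ± 0.17), none of which passed. The BMP2 count dropped to 17 when day 1 vehicle was left out and to 21 when day 1 GSK126 alone was, where the counts over all genes were 74 and 87, against 642.

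The response to BMP2 on day 6 was graded. Without GSK126, 48 of the 50 genes were highest at 0, lower at 10 and lowest at 50 ng/ml, and with GSK126 47 were. These are orders of single libraries, and the share of all tested genes with them was not counted. At 10 ng/ml 38 of the 50 were lower than without BMP2, where 6.78% of all tested genes were, with a median of -0.41 and the most negative values in Cdc25c (-0.63 ± 0.12, adjusted p = 0.021), Cenpf (-0.59) and Ccnb2 (-0.54). Mad2l1 (-0.03), Cdc25b (0.02) and Pttg1 (0.105) stood at the other end and did not pass. At 50 ng/ml 48 were lower, where 17.6% of all tested genes were, with a median of -0.95 and the most negative values in Aurkb (-1.27 ± 0.06, adjusted p = 4.9e-05), Kif20a (-1.24) and Ccnb2 (-1.22). Smc4 (-0.44, adjusted p = 0.012) passed with the smallest size, and Pttg1 (-0.08) and Cdc25b (0.33, adjusted p = 0.11) did not. Between 50 and 10 ng/ml 43 were lower, where 6.47% of all tested genes were, with a median of -0.52 and the most negative values in Aurkb (-0.81), Kif20a (-0.74) and Bub1b (-0.72). Incenp (-0.27), Pttg1 (-0.19) and Cdc25b (0.32) were among those that did not pass. The dose steps rest on few libraries. A fit on the 6 day 6 libraries alone called 0 of the 50 for 10 ng/ml, 45 for 50 ng/ml and 0 for 50 against 10 ng/ml. The lower calls of that fit over all genes were 10, 916 and 5 for the same comparisons. With day 6 BMP2 at 10 ng/ml left out, 19 were called for 10 ng/ml and 28 for 50 against 10 ng/ml, where 288 and 151 of all genes were. Leaving out its counterpart that also had GSK126 gave 11 for 10 ng/ml, where 142 of all genes were called.

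Set side by side on day 6, GSK126 alone gave lower levels than 10 ng/ml BMP2 alone in all 50 genes, and lower levels than 50 ng/ml BMP2 alone in 41. In 39 of the 50 genes the 3 libraries with GSK126 all lay below the 3 without it. These orders are between single libraries, and how many of all tested genes showed them was not counted.

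The design also combines both agents, and for most of these genes the combination on day 6 lay near the product of the separate effects. If each agent kept its single-agent ratio to vehicle, the combination at 10 ng/ml would be at that product. The observed level differed from the product by a median log2 value of 0.0466 at 10 ng/ml and 0.0576 at 50 ng/ml, against 0.0019 and 0.0021 over all tested genes. Mki67, for example, had 88.4 CPM with both agents at 10 ng/ml BMP2, against a product of 85.1 CPM, and 63.9 CPM at 50 ng/ml, against a product of 58.5 CPM. The combination lay below both single agents in 47 of the 50 genes at 10 ng/ml and in 49 at 50 ng/ml. The share of all tested genes where it did so was not counted. The values at 50 ng/ml ran from -0.49 in Cdc25c to 0.66 in Cdc25b, and at 10 ng/ml from -0.27 in Mybl2 to 0.41 in Spc24. In a fit with a term for GSK126 with any BMP2, edgeR called 0 of the 50 for that term on day 6, where 0% of all tested genes passed. Of the 50, 0 had an unadjusted p under 0.05 (1125 of all genes), and DESeq2 and limma-voom also called 0. The term ran from -0.245 in Cdc25c, -0.219 in Mybl2 and -0.188 in Cdc20 up to 0.334 in Smc4, 0.405 in Spc24 and 0.425 in Cdc25b. Its median was 0.055 with a median standard error of 0.37, and the smallest adjusted p over all genes was 0.19. A departure of several times that error could still have gone uncalled. The fit took both BMP2 doses as replicates, so the graded dose response of these genes went into its error. In the additive fit the GSK126 effect on day 6 had a median standard error of 0.053, and that error itself holds any departure from the product. The lack of calls therefore cannot decide whether the combination departed from the product.

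**Figure D4:**
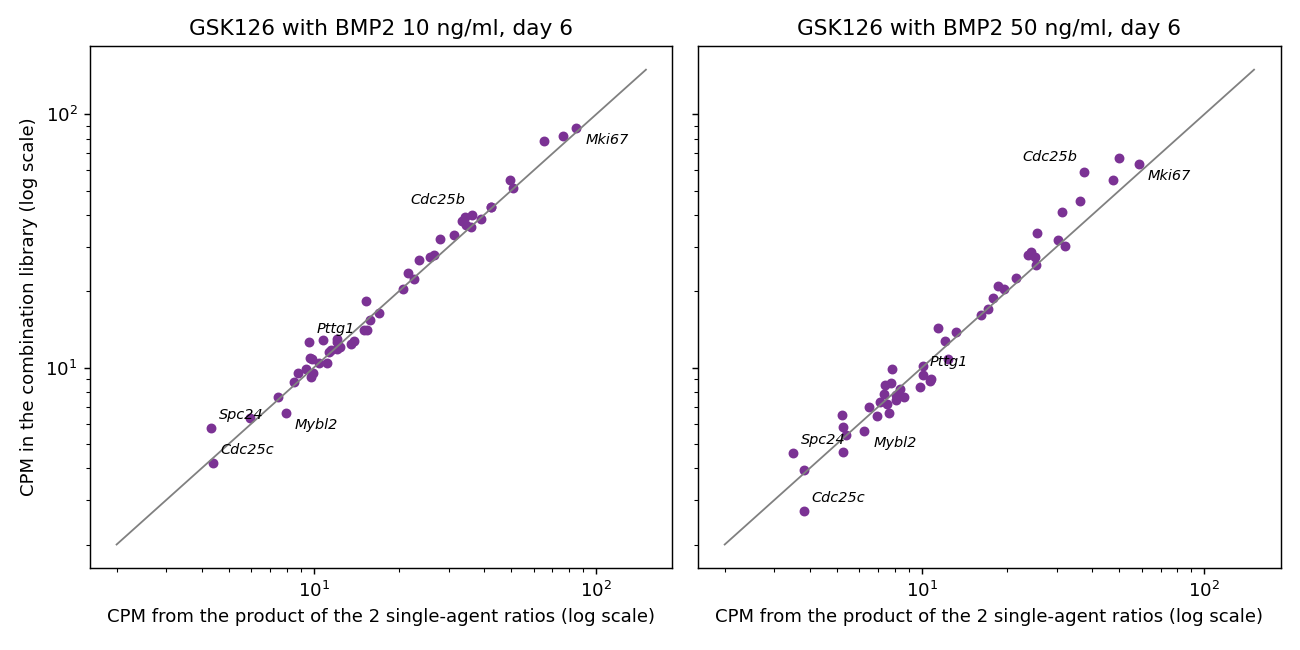
Observed CPM in the day 6 libraries with GSK126 and BMP2 (vertical, log scale) against the CPM expected if the 2 single-agent ratios multiply (horizontal, log scale), at 10 ng/ml (left) and 50 ng/ml BMP2 (right), 1 point per gene and the line marking equality. Points follow the line, with Cdc25b above it and Cdc25c below it at 50 ng/ml.

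The genes resembled each other closely over the 12 libraries. The mean centred log2 level of the 50 had a Pearson r above 0.99 with 43 of them, and the lowest were Pttg1 (-0.26), Cdc25b (0.76), Mybl2 (0.97), Cdc25c (0.98) and Mad2l1 (0.98). These correlations are over 12 libraries that share the split between days, and they describe shape only. The mean included each gene itself, and how many of all tested genes had an r above 0.99 was not counted. Outside the 50, the 5 genes most like that mean were Arhgap11a (r = 0.9993), Cdca3, Casc5, Fam64a and Ncaph (r = 0.9984), over the same 12 libraries. Levels per gene length, from the authors' RPKM, differed widely within the programme on day 1: Top2a averaged 73.5, Ube2c 60.7 and Racgap1 57.9 RPKM, and Cdc25c 8.17, Ttk 7.16 and Pttg1 5.06 RPKM.

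Further cell cycle lists give the setting. Of 73 other mitosis genes 69 fell with GSK126 on day 6 and 0 rose (median -0.91), and 60 fell with BMP2 and 0 rose (median -0.53). The lowest were Aspm, a spindle pole protein gene (-1.26 ± 0.05), and Kif14 (-1.25 ± 0.06) with GSK126, and Pbk, a mitotic kinase gene (-1.01 ± 0.14), and Depdc1b (-0.91 ± 0.16) with BMP2. Between days 72 of the 73 fell, most in Espl1, separase (-2.23 ± 0.06), and Fam64a (-2.21 ± 0.03), and 1, Psrc1, rose (0.18 ± 0.03). Of 44 S phase genes 44 fell between days, with a median of -1.72 close to the -1.82 of the 50 genes. On day 6, 35 of the 44 fell with GSK126 (median -0.48) and 16 with BMP2 (median -0.18), with 0 rises for either. Tk1, thymidine kinase, was the S phase gene lowest with both agents (-0.97 ± 0.08 and -0.58 ± 0.09), and Rrm2, a ribonucleotide reductase subunit, fell most between days (-2.9 ± 0.04), followed by the origin licensing gene Cdc6 (-2.62 ± 0.09). Next after Tk1 stood Uhrf1 with GSK126 (-0.92 ± 0.11) and the primase gene Prim1 with BMP2 (-0.43 ± 0.07). A list of 15 APC/C genes, made of its subunits and the co-activator Fzr1, had 7 lower and 6 higher between days, 3 lower and 1 higher with GSK126 on day 6, and 2 lower and 0 higher with BMP2, beside 37.5% lower and 40.5% higher, 14% and 14.3%, and 15.5% and 13.3% of all tested genes. Among them Fzr1, which encodes CDH1 (-0.29), and Anapc4 (-0.18) fell and Cdc16 (0.25) rose with GSK126, and Cdc23 (-0.155) and Anapc4 (-0.14) fell with BMP2. Between days Fzr1 stood at -0.59 and 3200002M19Rik (Anapc15) at -0.81, and Cdc26 and Anapc13 at 0.48 each. The differences between lists were not tested.

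**Figure D5:**
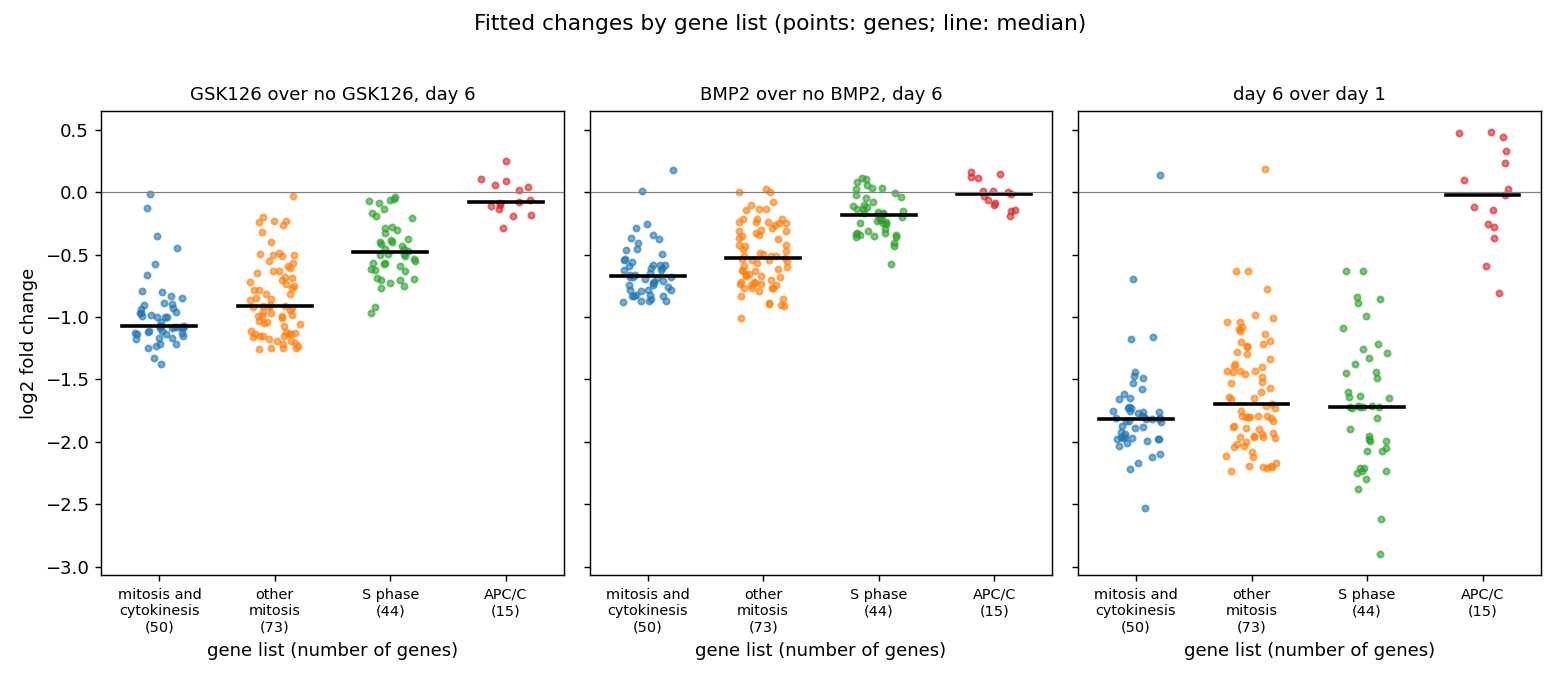
Fitted log2 fold changes of the 50 genes, of 73 other mitosis genes, 44 S phase genes and 15 APC/C genes (points, with the median as a line) for GSK126 on day 6, BMP2 on day 6 and day 6 over day 1. Medians for GSK126 are -1.07, -0.91 and -0.48 in the first 3 lists, while between days the first and the third list lie at -1.82 and -1.72.

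Markers moved alongside. All 8 osteoblast markers rose with BMP2 on day 6 and 4 of 8 rose with GSK126, where 13.3% and 14.3% of all tested genes rose. The summed level of the 8 was 74300 to 157000 CPM on day 6 with GSK126, 61000 to 142000 CPM on day 6 without it and 42100 to 51600 CPM on day 1. Most of that sum was Col1a1 (28600 to 75000 CPM on day 6 and 18500 to 22700 CPM on day 1) and Col1a2 (31600 to 67600 CPM on day 6 and 22900 to 27900 CPM on day 1). The 6 leukocyte markers summed to 4 to 5.23, 4.92 to 6.24 and 6.41 to 7.88 CPM in the same groups, with Ptprc at most at 0.08 CPM. Endothelial markers summed to at most 0.284 CPM and the adipocyte markers to at most 3.13 CPM. The chondrocyte markers summed to 307 to 1210 CPM on day 6 with GSK126, 91.6 to 410 CPM on day 6 without it and 2350 to 4220 CPM on day 1, and Col2a1 alone made up 64.7 to 1190 CPM on day 6 and 2310 to 4150 CPM on day 1, with Acan at most at 0.0469 CPM. Of 2 tested chondrocyte markers, 1 rose with GSK126 and 1 with BMP2 on day 6. The 1 tested adipocyte marker rose with GSK126, and 1 of 2 tested leukocyte markers rose with BMP2. The part of these shifts in the fall of the 50 genes was not tested.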

How the data were processed

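RNA-seq was done on 12 libraries, 1 per combination of day, BMP2 dose and GSK126. The authors deposited whole-number counts per gene, and per the submitters' processing notes the tools included bcl2fastq, TopHat2 2.0.6 and HTSeq with the mm10 build. Every deposited count was even, as if both mates of a pair had been counted, so counting noise is larger than the totals imply. The authors' deposited RPKM values (scaled by gene length and library size) were used only to compare levels between genes. Strand handling is not given in the sources used here, so reads of overlapping or antisense genes cannot be told apart. Genes reaching 1 CPM in 2 or more libraries were scaled by TMM and tested with edgeR 4.0.16 (quasi-likelihood test, R 4.3.3) with 8 coefficients and 4 residual degrees of freedom, and p-values were adjusted by Benjamini-Hochberg over all 12056 genes. The GSK126 by BMP2 term was tested in a second fit, with a mean for each combination of day, GSK126 and any BMP2. That fit has no terms for the separate doses, so differences between doses go into its error. The scripts were tested on simulated data. Alternatives were DESeq2 1.42.0, limma-voom (limma 3.58.1), library size scaling, other filters, halved counts, fits on 1 day and leaving out each library; leaving out Rn45s was added after seeing the data. The 50 genes, the other lists and the roles were chosen with earlier results of these data known. Genes were named by a rule: 23 of the 50, spread over the roles, with their values in each library; in each comparison the 3 most negative and 3 most positive of the 50 and any that went against the majority; outside the 50, the 5 genes best correlated with their mean, and up to 2 called genes each way per list. The per-library values of Cdc25b, Cdc25c, Kif4, Mad2l1 and Pttg1 were added after their values were seen. Promoter sequences are from RefSeq, matched by symbol.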

Additional observations from a re-analysis of the deposited data

Results flagged for a closer look

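The effect of GSK126 differed between day 6 and day 1 in 47 of the 50 genes, and that of BMP2 in 43, by edgeR's test of the difference itself. Each of these differences was more negative on day 6, where 6.52% and 5.33% of all tested genes had such a difference. Cdc25b, Pttg1 and Smc4 were not among the 47 for GSK126, with differences of -0.09, -0.16 and -0.38. The BMP2 count dropped when the day 1 vehicle library or the day 1 library with GSK126 alone was left out.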

How the results depend on the processing

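Counts here are of the 50 genes called lower, by edgeR unless named. With DESeq2, limma-voom, library size scaling, other filters, halved counts, a fit on 1 day where one exists, and without Rn45s, the count stayed at 49 for day, 47 to 48 for GSK126 on day 6, 41 to 48 for BMP2 on day 6 and 45 to 48 for 50 ng/ml. Fits on 1 day alone gave 11 called in either direction for GSK126 on day 1 and 10 for BMP2 on day 1, against 0 each, and 0 lower for 10 ng/ml and 0 for 50 against 10 ng/ml on day 6, against 38 and 43; the cause was not tested. Leaving out each library gave 49 for day, 48 to 49 for GSK126 on day 6, 46 to 48 for BMP2 on day 6, 44 to 49 for the GSK126 difference between days, 17 to 47 for the BMP2 difference, 11 to 43 for 10 ng/ml, 28 to 48 for 50 against 10 ng/ml and 0 to 1 for BMP2 on day 1. The interaction gave 0 in the 10 leave-out fits that could be made. Over all genes, library size scaling shifted the median by -0.21 for day and -0.14 for BMP2 on day 6, and lower calls for BMP2 on day 6 were then 3410, against 1863. A fit on day 6 alone gave 478 lower calls for GSK126, against 1689, and 670 for BMP2. For BMP2 on day 1 all-gene calls were 912 with DESeq2 and 4683 on day 1 alone, against 441, and 1 to 1486 with a library left out, and DESeq2 called 190 for the interaction, against 0. Leaving out a library gave 237 to 1484 all-gene lower calls for the GSK126 difference between days, against 786, and 74 to 1387 for the BMP2 difference, against 642. For day, GSK126 on day 6 and BMP2 on day 6, the comparisons followed gene by gene, no called gene of the 50 reversed. No paired analysis was possible because every condition has 1 library, all of the same replicate number, so that number could not be a block; treatments were matched by the terms of the model.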

Other observations

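Regulators of G1 and of the DREAM and MuvB complexes were described beside the 50 genes. Of 13 tested G1 regulators, 6 fell and 7 rose between day 6 and day 1, beside 37.5% and 40.5% of all tested genes. With GSK126 on day 6, 6 fell and 0 rose, beside 14% and 14.3%, and with BMP2 on day 6, 5 fell and 2 rose, beside 15.5% and 13.3%. Cdkn1a, the CDK inhibitor p21, rose between days (1.79 ± 0.09) and with BMP2 (0.48 ± 0.14, adjusted p = 0.043), and had 0.42 ± 0.13 with GSK126 (adjusted p = 0.053), by edgeR. Rb1, the retinoblastoma gene, rose between days (0.65 ± 0.05) and with BMP2 (0.32 ± 0.08, adjusted p = 0.022). Rbl1, which encodes p107 (-1.47 ± 0.09), and Cdk2 (-1.31 ± 0.05) fell between days. Cdkn2d (-0.70 ± 0.06) and Cdkn2c (-0.55 ± 0.15), inhibitors of CDK4 and CDK6, fell with GSK126, and with BMP2 they stood at -0.43 ± 0.07 and -1.33 ± 0.15 (adjusted p = 0.0037 and 0.0012). Cdkn2a and Cdkn2b, which encode the INK4A and INK4B inhibitors, had at most 6 and 4 counts in any library and were not tested. Of 10 DREAM and MuvB genes, 6 fell and 1 rose between days, 3 fell and 0 rose with GSK126, and 2 fell and 0 rose with BMP2 on day 6, beside the same shares of all tested genes. Between days Lin9 (-1.33 ± 0.06) and Lin54 (-0.98 ± 0.04) fell and Lin37 rose (0.21 ± 0.07). Mybl1, a relative of Mybl2, fell with GSK126 (-0.81 ± 0.06) and with BMP2 (-0.51 ± 0.07), and Lin9 fell with GSK126 (-0.44 ± 0.09) and Tfdp1 with BMP2 (-0.25 ± 0.04).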
